A study of Cricetulus griseus and Cricetulus griseus
Mus musculus and Mus musculus with 202 samples.

Results

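The lines examined were T31 mouse-hamster radiation hybrids with a high or a low ratio for Sod2, the mitochondrial manganese superoxide dismutase, relative to the hamster cells they were made from. Lines were chosen by the Sod2 ratio itself: the log2 ratio of hybrid over recipient was averaged over both arrays of a line, and a line was called high above 1 and low below 0.5. Of 99 lines, 20 were high, 72 were low and 7 lay between the thresholds and entered neither group. The question was which other genes differed between high and low lines, with genes close to Sod2 on mouse chromosome 17 taken apart from distant ones.

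Each hybrid line carried mouse chromosome fragments in cells of A23, a Chinese hamster fibroblast line, and its RNA was set against RNA of A23 on 2-colour arrays of mouse probes. All hybrids and A23 were grown alike in DMEM with serum, with no treatment, and every line gave 2 arrays, the second with the dyes exchanged. Whole brain and whole liver RNA of mouse against hamster was measured on 4 further arrays, 2 per tissue. RNA of A23 was the reference for every line, so values give a line relative to A23, and high and low lines were compared through that common reference.

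A radiation hybrid panel is made by breaking the chromosomes of donor cells with radiation and fusing them with recipient cells that lack a selectable enzyme, here thymidine kinase. Each line then keeps its own random set of donor fragments in addition to the full recipient genome, and genes that lie close together on a donor chromosome tend to be kept together. Sod2 encodes the enzyme that converts superoxide to hydrogen peroxide in the mitochondrial matrix, and its transcription is known to respond to NF-kB. In bulk RNA a larger share of cells that keep a fragment and more RNA per cell cannot be told apart.

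The arrays held 20868 features for 16504 genes, of which 1152 had several features and Sod2 had 1. Features of an array varied with an SD between 0.398 and 2.42 on the log2 scale, at a median over arrays of 0.845. The median SD over genes was 0.852 on the replica 1 arrays of high lines and 0.835 on those of low lines, and 0.785 and 0.767 on replica 2. Exact zeros made up a median of 8.23% of the values in high lines and 7.58% in low lines. Tk1, the thymidine kinase that the panel's selection requires, averaged 2.05 ± 0.79 (SD, n = 20) in high lines and 1.81 ± 0.81 (SD, n = 72) in low lines. Line 42, a high line, had the widest replica 1 array among the high lines, with an SD of 2.37.

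Sod2 in the high lines ran from 1.05 to 4.04 with a median of 1.73 on the log2 scale. In the low lines it ran from -0.94 to 0.50 with a median of 0.02, and in the lines between from 0.57 to 0.95. These values set the groups and were not tested. Just inside the upper threshold lay line 47 at 1.05, line 42 at 1.09 and line 31 at 1.10, and just outside it line 7 at 0.95 and line 40 at 0.93. Just inside the lower threshold lay line 66 at 0.50, line 29 at 0.48 and line 74 at 0.45, and the nearest line above it was line 49 at 0.57.

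The plot of Sod2 on both arrays shows how well single arrays bore out a line's group. Both arrays exceeded 1 in 15 of the 20 high lines, and both were below 0.5 in 64 of the 72 low lines. The high lines 34 and 65 had 1 array below 0.5. Line 34 read 0.18 on replica 1 and 2.98 on replica 2, and line 65 read -0.42 and 3.02. In 1 low line a single array exceeded 1. Over the 99 lines the arrays of a line correlated for Sod2 with a Pearson's r of 0.760 and a Spearman correlation of 0.562, against a median Pearson's r of 0.0440 over all genes. That is a description of the measurement, since lines of 1 dye orientation share the A23 reference.

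**Figure D1:**
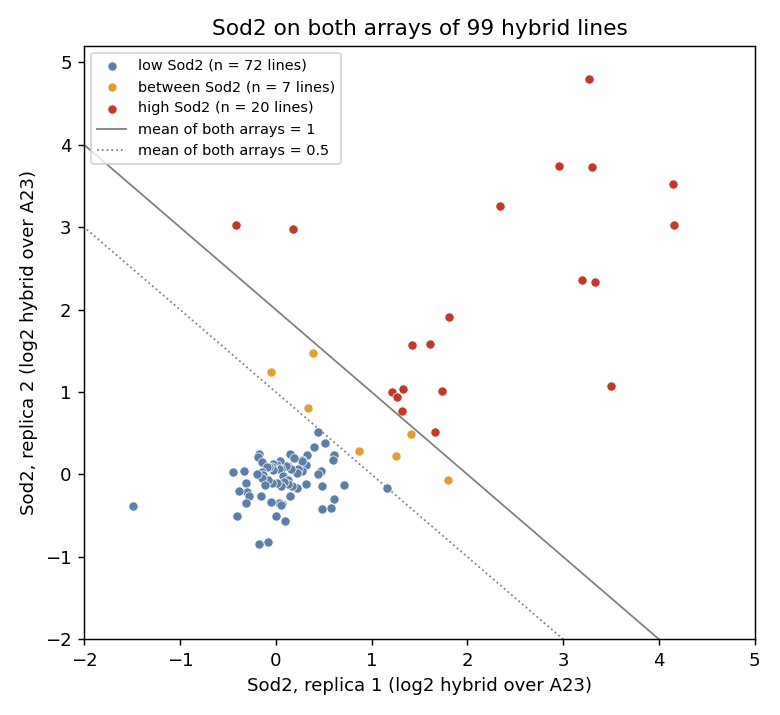
Sod2 log2 ratio of hybrid over A23 on replica 1 (x axis) and replica 2 (y axis), 1 point per line, coloured by group, with lines where the mean of both arrays equals 1 and 0.5. The 20 high lines spread from 1.05 to 4.04 in their mean, and 2 of them, at the upper left, were high on replica 2 alone.

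Limma, run on 1 value per line with Benjamini-Hochberg adjustment over the 16503 genes other than Sod2, called 4 genes at an adjusted p under 0.05. All 4 were higher in the high lines, 0.0242% of the genes tested, and 0% were called lower. All 4 were also in the list of 30 measured genes placed around Sod2 on chromosome 17. They were Mrpl18, a protein of the large subunit of the mitochondrial ribosome, Igf2r, the receptor that carries insulin-like growth factor 2 and mannose 6-phosphate enzymes to lysosomes, Afdn, which ties nectin junctions to actin, and Fam120b, a coactivator of the nuclear receptor PPAR gamma. The list came from general knowledge of the mouse map, in order but without distances, because gene positions were not used here. The list was chosen with earlier results of these data known, so the place of the 4 calls in it is a description. It ran from Cep43 to Prdm9, with Igf2r and Mrpl18 listed before Sod2 and Afdn and Fam120b after it.

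Mrpl18 ran in the high lines from -0.34 to 3.80 with a median of 2.29, and in the low lines from -1.31 to 2.64 with a median of -0.06. It exceeded 1 in 17 of 20 high lines and in 1 of 72 low lines, so the groups overlapped in few lines. The difference between group means was 2.11 ± 0.17 (SE, 20 against 72 lines) on the log2 scale, 4.31-fold, with a limma adjusted p of 6.31e-17 and a 95% interval from 1.77 to 2.45. The 1 low line above 1 was line 46, where replica 1 read 6.64, the highest ratio that the deposited floor allows in that orientation, and replica 2 read -1.37. The 3 high lines not above 1 were line 42 at 0.87, line 31 at 0.17 and line 47 at -0.34, the same 3 lines that lay just inside the Sod2 threshold.

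Igf2r was more divided among the high lines. It ran from -0.41 to 4.70 with a median of 0.71, and in the low lines from -1.12 to 2.70 with a median of 0.04. It exceeded 1 in 9 of 20 high lines and 2 of 72 low lines, namely line 71 at 2.70 and line 13 at 1.31. The difference was 1.42 ± 0.24 (SE), 2.68-fold, with a limma adjusted p of 1.86e-04. By line means, the high lines thus held a group with Igf2r between 1.92 and 4.70 and a group at or below 0.73, with none between. Single arrays of high lines did fall between, such as 1.26 on replica 1 of line 22, 1.45 on replica 2 of line 33 and 1.54 on replica 1 of line 65. Line 34, of the upper group, read -0.29 and 4.37. Among the lines between the Sod2 thresholds, line 40 averaged 1.84.

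Afdn ran in the high lines from -0.18 to 2.80 with a median of 0.68, and in the low lines from -0.83 to 1.24 with a median of 0.02. It exceeded 1 in 7 of 20 high lines and in 1 of 72 low lines, line 80 at 1.24. The difference was 0.75 ± 0.12 (SE), 1.68-fold, with a limma adjusted p of 1.14e-04.

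Fam120b ran in the high lines from -0.09 to 1.91 with a median of 0.61, and in the low lines from -1.53 to 1.76 with a median of 0.11. It exceeded 1 in 7 of 20 high lines and in 2 of 72 low lines, lines 74 and 90. The difference was 0.68 ± 0.14 (SE), with a limma adjusted p of 0.0122. Of the 4 calls, it was the one lost without 1 line: the adjusted p was 0.0605 without line 14 and 0.0597 without line 28. Exact zeros made up 21.0% of its values.

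**Figure D2:**
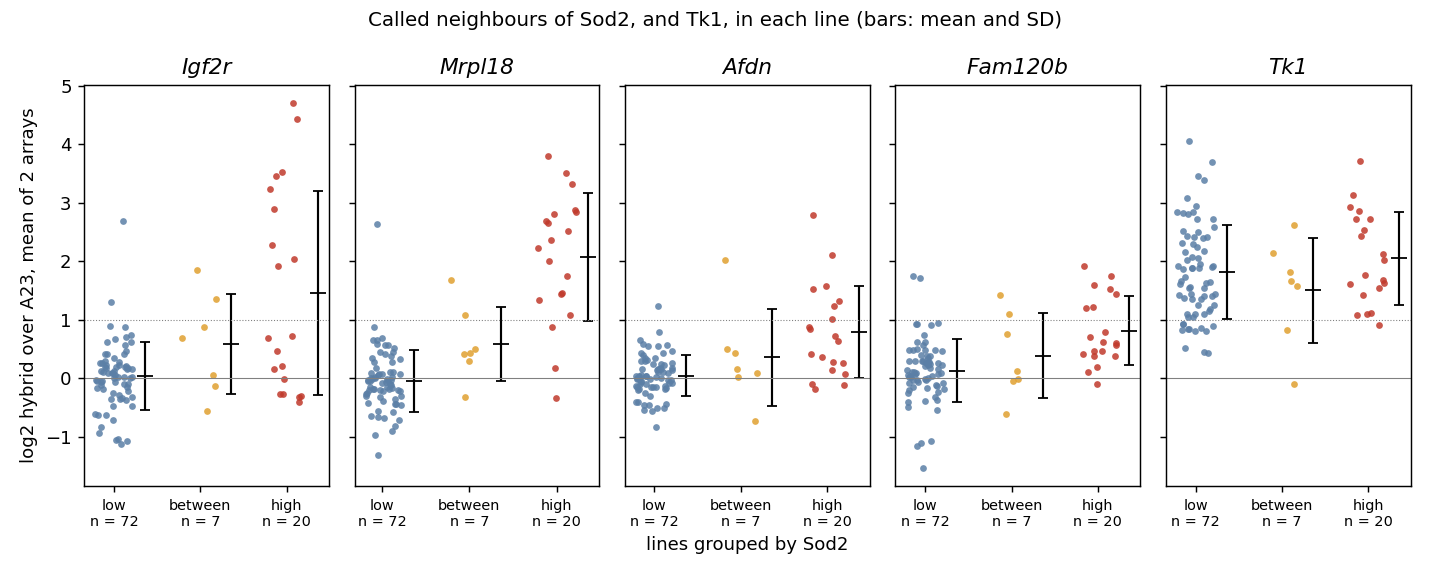
Log2 ratio of hybrid over A23 (y axis, mean of both arrays) for the 4 called genes and Tk1, 1 point per line, with lines grouped by Sod2 as low, between and high and a bar for each group's mean and SD. Mrpl18 exceeded 1 in 17 of 20 high lines, Igf2r in 9 and Afdn and Fam120b in 7 each, while Tk1 averaged 2.05 in high and 1.81 in low lines.

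The lines were also read from the side of the neighbour. Mrpl18 exceeded 1 in 20 of 99 lines, of which 17 were high for Sod2 and 2 lay between the thresholds, so that 85.0% of either set was shared. Igf2r exceeded 1 in 13 lines, and 69.2% of these were high for Sod2. Afdn did so in 9 lines, 77.8% of them high, and Fam120b in 11 lines, 63.6% of them high. In the 7 lines between the thresholds Mrpl18 had a median of 0.42, Igf2r of 0.69, Afdn of 0.16 and Fam120b of 0.12.

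The replicate arrays allowed a comparison in which the values that set the groups and the values compared came from different arrays. With lines grouped on Sod2 in replica 1 alone, 22 were high and 70 low, and genes were then compared on replica 2. With lines grouped on replica 2, 19 were high and 75 low, and genes were compared on replica 1. Limma called 1 gene, Mrpl18, in each direction of this exchange, 0.00606% of the genes tested, with 0% called lower. Its difference was 1.81 ± 0.26 (SE) with an adjusted p of 5.50e-06 in the first and 1.71 ± 0.27 (SE) with an adjusted p of 9.06e-05 in the second.

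The other 3 genes kept a positive difference in this exchange without being called. Igf2r gave 1.13 ± 0.27 and 1.24 ± 0.27 (SE), with limma adjusted p of 0.663 and 0.120. Afdn gave 0.50 ± 0.14 and 0.66 ± 0.16 (SE), with limma adjusted p of 0.999 and 0.228. Fam120b gave 0.56 ± 0.16 and 0.55 ± 0.22 (SE), with limma adjusted p of 0.999 and 1. Their unadjusted limma p was 8.04e-05 and 1.59e-05 for Igf2r, 6.27e-04 and 6.91e-05 for Afdn, and 5.85e-04 and 0.0137 for Fam120b. These 3 genes were picked by the main comparison of the same lines. Each gene was read on 1 array per line here, in place of the mean of both arrays.

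**Figure D3:**
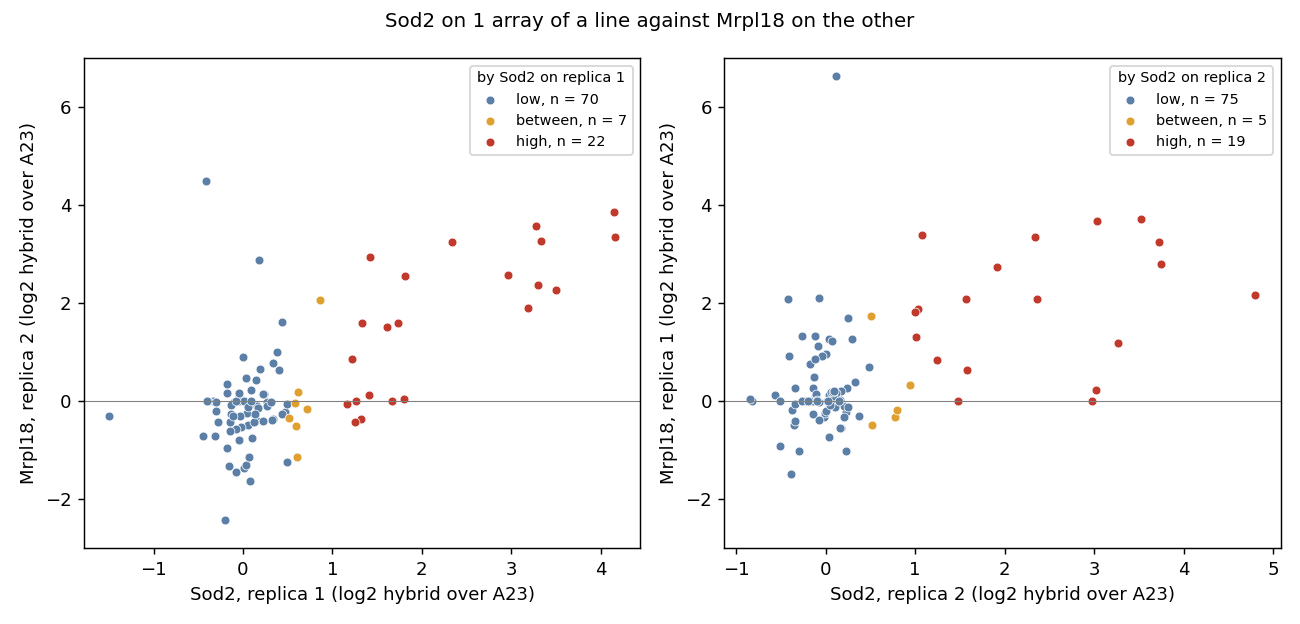
Sod2 on 1 array of a line (x axis) against Mrpl18 on the other array of the same line (y axis), both as log2 hybrid over A23, coloured by the Sod2 group on the array plotted at the x axis. Mrpl18 was 1.81 higher in the 22 high lines at the left and 1.71 higher in the 19 high lines at the right, and the point near the top of the right plot is line 46 at 6.64.

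The level of Sod2 within the high lines was read beside its neighbours. Mrpl18 correlated with Sod2 over the 20 high lines with a Pearson's r of 0.777 and a Spearman correlation of 0.866, and over the 72 low lines with 0.253 and 0.202. Over all 99 lines Pearson's r was 0.853, and 0.827 without the 2 lines farthest from the median of Sod2. Within the high lines Pearson's r was 0.675 for Afdn, 0.525 for Fam120b and 0.328 for Igf2r, the genes sharing arrays and line means with Sod2. Their Spearman correlations there were 0.61, 0.34 and 0.16. Over the 72 low lines Pearson's r was -0.156 for Afdn, 0.431 for Fam120b and 0.267 for Igf2r, with Spearman correlations of -0.08, 0.39 and 0.34. For Fam120b and Igf2r the relation to Sod2 was thus not particular to the high lines. Over all lines Pearson's r of these 3 genes was 0.609, 0.550 and 0.583, and for Afdn it fell to 0.470 without the same 2 lines.

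In the 9 lines with Sod2 above 2, Mrpl18 had a median of 2.84 and exceeded 1 in all 9 lines. In the 11 high lines with less Sod2 its median was 1.45, with 8 lines above 1. Afdn had medians of 1.32 and 0.37, exceeding 1 in 6 of the 9 and 1 of the 11 lines. Fam120b had medians of 1.22 and 0.47, also exceeding 1 in 6 of 9 and 1 of 11. Igf2r exceeded 1 in 5 of 9 and 4 of 11 lines, with medians of 2.90 and 0.69. These splits follow the Sod2 level and are given as description.

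Single high lines showed different extents of raised neighbours. By line means, all 4 called genes exceeded 1 in 3 lines, numbered 14, 94 and 33, where Sod2 was 3.51, 2.80 and 2.29. None did in line 47, where Sod2 was 1.05. Genes on both sides of Sod2 exceeded 1 in 9 lines, genes on the Igf2r and Mrpl18 side alone in 9 lines and a gene on the Afdn and Fam120b side alone in 1 line. Single arrays bore this out less. Afdn read 0.79 on 1 array of lines 14 and 94 and 0.78 on 1 array of line 33. Both arrays exceeded 1 in 13 high lines for Mrpl18, 8 for Igf2r, 2 for Afdn and 3 for Fam120b. In the low lines these counts were 0, 1, 1 and 1.

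Line 87 was high for Igf2r at 4.70, Mrpl18 at 3.80 and Afdn at 2.80, with Fam120b at 0.60. Line 28 had the opposite end raised, with Mrpl18 at 2.88, Afdn at 2.11, Fam120b at 1.91 and Igf2r at -0.31. In line 84, with Sod2 at 2.84, Mrpl18 at 3.32 was the sole called gene above 1. Mrpl18 exceeded 1 while Igf2r did not in 9 high lines, and the reverse held in line 31. In line 18 Afdn was at -0.10 beside Fam120b at 1.22.

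In lines 34 and 65, whose Sod2 was high on replica 2 alone, Mrpl18 was split in the same way. It read 0 on replica 1 and 2.89 on replica 2 of line 34, and 0.23 and 4.49 in line 65. Igf2r followed in line 34, with -0.29 and 4.37, and ran the other way in line 65, with 1.54 and -0.16. The labels name no cultures for the replicas, and the part of culture or array in this was not tested. Without these 2 lines limma called 6 genes, the same 4 with H2-M3 and Tex14 added.

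**Figure D4:**
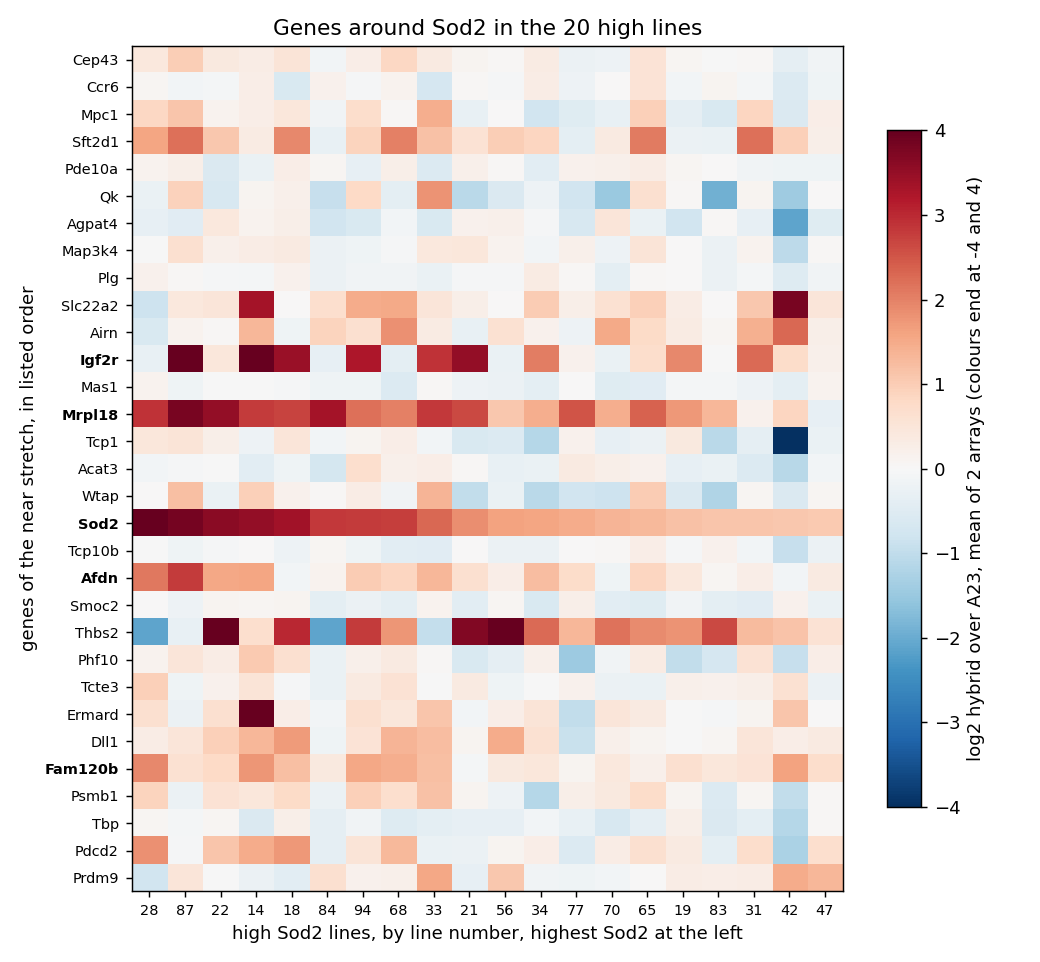
Log2 ratio of hybrid over A23 (colour, mean of both arrays) for the genes of the near stretch, in listed order from top to bottom, in the 20 high lines ordered from the highest Sod2 at the left, with Sod2 and the called genes in bold. Mrpl18 is raised in nearly every column. In these means Igf2r is either at 1.92 and above or at 0.73 and below, though some single arrays lie between.

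The genes listed nearest to Sod2 did not all differ. Between Igf2r and Sod2 lay Mas1, a G protein coupled receptor of the angiotensin system, Tcp1, a subunit of the cytosolic chaperonin, Acat3, an acetyl-CoA acetyltransferase, and Wtap, a part of the RNA methyltransferase complex. Mas1 differed by -0.05 ± 0.07 (SE), Acat3 by 0.12 ± 0.11 and Wtap by 0.17 ± 0.17, and limma called none of them. Tcp1 averaged -0.33 ± 1.04 (SD, n = 20) in high and -0.65 ± 1.01 (SD, n = 72) in low lines, a difference of 0.32 with a 95% interval from -0.18 to 0.82, or 0.53 without line 42, where it read -4.28. After Sod2, Tcp10b differed by -0.04 ± 0.06 (SE), Smoc2, a matrix calcium-binding protein, by 0.04 ± 0.11, Thbs2, a thrombospondin, by 0.61 ± 0.51 and Phf10, a subunit of a chromatin remodelling complex, by 0.30 ± 0.13. The intervals of these genes allow differences in either direction for all but Phf10, whose limma adjusted p was 0.979.

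Mouse and hamster tissue gave a reading of what the same features report when mouse RNA replaces hamster RNA. The 4 tissue arrays appeared centred per feature, which moves the arrays of a tissue in opposite directions and leaves their mean, unless a value is at the floor. Sod2 read 6.64, at the floor and so a bound, on replica 1 of brain and of liver, and 1.18 and 1.00 on the dye-exchanged arrays. With both replica 1 values at the floor, the centring itself sets the lower of the dye-exchanged readings, here 1.00 in liver. Mrpl18 read 5.30 and 0.98 in brain and 6.06 and 1.89 in liver. Igf2r read 2.42 and 0.86 in brain and 3.73 and 1.52 in liver. Afdn read 2.91 and 1.21 in brain and 2.41 and 0.15 in liver, and Fam120b 2.43 and 3.23 in brain and 1.81 and 0.48 in liver. Each was thus above 0 on all 4 arrays, as were 10 of the 26 near genes not called and 33.7% of all genes. Because centring ties the 4 arrays of a feature together, these are not 4 separate readings, and single-array values depend on it. Tcp1 lay between -0.04 and 0.15 on the 4 arrays, Wtap between -1.22 and -0.56, and Mas1 between 0.40 and 0.55 in brain and at 5.60 and 4.21 in liver.

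Over the whole near stretch the difference was above 0 in 24 of 30 genes (80.0%), with a median of 0.24, against 58.6% above 0 and a median of 0.03 over all 16503 genes tested. Lists of genes by function, read below, ranged from 42.1% above 0 for p53 targets to 88.9% for the chaperonin ring, with 79.5% for DNA replication. The share above 0 alone thus does not set the stretch apart. At a nominal p under 0.05 (limma, unadjusted), 10 of the 30 were higher and 0 lower, 33.3% against 4.12% of all genes higher. Beside the 4 called genes these were Sft2d1, a vesicle transport protein, Pdcd2, Dll1, a ligand of Notch receptors, Psmb1, a subunit of the proteasome core, Phf10 and Airn, the noncoding RNA transcribed against Igf2r. Sft2d1 differed by 0.68 ± 0.19 (SE), with 8 of 20 high and 7 of 72 low lines above 1. Pdcd2 differed by 0.52 ± 0.17, Dll1 by 0.40 ± 0.14, Psmb1 by 0.31 ± 0.15 and Airn by 0.38 ± 0.19 (SE). None of these 6 passed the adjustment, with limma adjusted p from 0.505 to 0.979.

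The stretch was divided at Sod2 and at Agpat4. Of the 11 measured genes from Agpat4 to Wtap, 2 were called, with a median difference of 0.17, and 3 (27.27%) were higher at a nominal p under 0.05. Of the 13 after Sod2, 2 were called, with a median of 0.31, and 6 (46.15%) were higher at a nominal p under 0.05. Of the 6 before Agpat4 none was called, 1 (16.67%) was higher at a nominal p under 0.05, namely Sft2d1, and their median was 0.19. Over all genes tested, 0.0242% were called higher and 4.12% were higher at a nominal p under 0.05.

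Beyond the near stretch, 17 measured genes from Tiam2 to Fndc1 lie further out on the proximal side. Limma called 0 of them, with a median difference of 0.17. At a nominal p under 0.05, 5 were higher and 0 lower, or 29.4% higher against 4.12% of all genes. Tmem242, a membrane protein of mitochondria, differed by 1.29 ± 0.36 (SE), with 10 of 20 high and 11 of 72 low lines above 1 and a limma adjusted p of 0.505. Exact zeros made up 42.9% of its values. Dynlt1b, a dynein light chain, differed by 0.83 ± 0.29 and Ezr, which links actin to the cell membrane, by 0.68 ± 0.25 (SE). Rsph3a, a protein of the radial spoke of cilia, differed by 0.19 ± 0.08 (SE). Tagap1 differed by 0.31 ± 0.10 (SE), but by 0.16 without line 14, where it read 3.23 against at most 0.91 in any other high line.

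**Figure D5:**
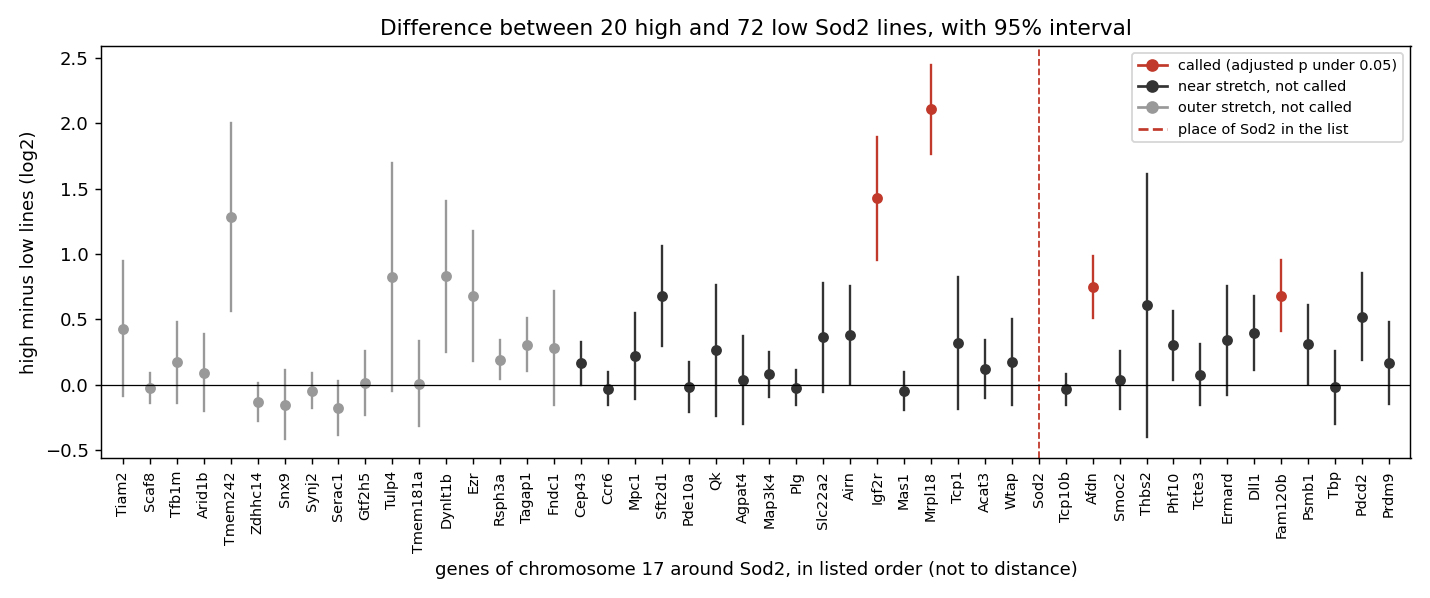
Difference of high minus low lines (y axis, log2, points with 95% intervals) for the genes of chromosome 17 listed around Sod2, in listed order (x axis, not to distance). The called genes Igf2r at 1.42, Mrpl18 at 2.11, Afdn at 0.75 and Fam120b at 0.68 are shown among neighbours that were not called, whose differences ran from -0.18 for Serac1 to 1.29 for Tmem242.

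Of 261 measured genes listed as distant on chromosome 17, limma called 0. At a nominal p under 0.05, 10 were higher (3.83%, against 4.12% of all genes) and 1 lower. Their median difference was -0.003. The lowest nominal p was that of Ier3, an early response gene, which differed by 0.82 ± 0.28 (SE) with a limma adjusted p of 0.844. The listed genes of the MHC class III region, 38 of them measured, had a median of -0.02. Of these 1 (2.63%), the heat shock gene Hspa1a, was higher at a nominal p under 0.05, by 0.75 ± 0.28 (SE). Exact zeros made up 54.0% of the Hspa1a values.

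Among the 16195 genes outside the chromosome 17 lists, which include genes of all other chromosomes and any of chromosome 17 that the lists missed, limma called 0. At a nominal p under 0.05, 655 were higher and 97 lower, and the median difference was 0.03. Fitting both arrays of a line with dye orientation as a term and line as a replicate block called 12 genes in place of 4, all higher. These were the same 4, Tmem242 of the outer stretch, and 7 outside the lists: H2-M3, Tex14, Chst14, Gatm, Ipo5, Tmed5 and Rab2b. The consensus correlation of the arrays of a line in that fit was 0.0405, so both arrays of a line counted almost as separate samples. Over the lines, Pearson's r between both arrays was 0.617 for H2-M3, 0.643 for Ipo5, 0.511 for Chst14 and 0.439 for Gatm. It was 0.528 for Tmem242, 0.512 for Tmed5 and 0.514 for Rab2b, but -0.018 for Tex14. Where this r lies above the consensus value, the p-values with the block are too small. H2-M3, a nonclassical MHC class I gene that also lies on chromosome 17 but was not in the list, was named after its value was seen. It differed by 1.72 ± 0.39 (SE), with a limma adjusted p of 0.0825 on line means and 0.00130 with the block.

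H2-M3 in the high lines ran from -0.28 to 5.56 with a median of 2.73, and in the low lines from -1.39 to 6.03 with a median of 0. It exceeded 1 in 12 of 20 high and 15 of 72 low lines, and 64.1% of its values were exact zeros. Tex14, a gene of intercellular bridges in germ cells, differed by 0.78 ± 0.18 (SE) with a limma adjusted p of 0.0825 on line means and 0.0485 with the block.

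Genes that share the biochemistry of Sod2 were read from lists. Of 30 measured genes of superoxide and peroxide defence, limma called 0, with a median difference of 0.05. At a nominal p under 0.05, 2 were higher and 0 lower, or 6.67% higher against 4.12% of all genes. Sod1, the cytosolic dismutase, differed by 0.15 ± 0.09 (SE), Sod3, the secreted one, by 0.03 ± 0.12, and Cat, the catalase that splits hydrogen peroxide, by 0.02 ± 0.12. The mitochondrial peroxidase Prdx3 differed by 0.21 ± 0.16, its electron donor Txn2 by -0.05 ± 0.14 and Txnrd2, which reduces thioredoxin in mitochondria, by -0.03 ± 0.06 (SE). The members with a nominal p under 0.05 were Nqo1, a quinone reductase, at 0.93 ± 0.38 and Msra, a methionine sulfoxide reductase, at 0.48 ± 0.19 (SE). Their limma adjusted p was 0.979.

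Of 34 NF-kB targets and regulators limma called 0, with 4 higher and 0 lower at a nominal p under 0.05, or 11.8% higher against 4.12% of all genes. The members of lowest nominal p were Ier3 at 0.82 ± 0.28, Icam1, an adhesion molecule of leukocyte binding, at 0.44 ± 0.15 and Saa3, an acute phase protein, at 1.26 ± 0.54 (SE), with limma adjusted p from 0.844 to 0.979. Nfkbia, the inhibitor that NF-kB itself induces, differed by 0.03 ± 0.19 (SE). Of 45 respiratory chain genes 0 were called, with 2 higher and 0 lower by nominal p, or 4.44% higher against 4.12% of all genes, and a median of 0.11. Of these, 86.7% were above 0, against 58.6% of all genes. Of 68 genes of the mitochondrial ribosome 1 was called, which was Mrpl18 itself, and the median was 0.11. Of 39 DNA replication genes 0 were called, with 7 higher and 0 lower by nominal p, or 17.9% higher against 4.12% of all genes, and a median of 0.16. Rrm2, the small subunit of ribonucleotide reductase, differed by 0.99 ± 0.33 (SE) with a limma adjusted p of 0.844.

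Of 16 genes of mitochondrial iron-sulfur and manganese enzymes and carriers 0 were called. By nominal p 3 were higher and 1 lower, or 18.75% higher against 4.12% of all genes. The manganese and zinc importer Slc39a14 differed by 0.37 ± 0.12 and the manganese exporter Slc30a10 by 0.42 ± 0.15 (SE), with limma adjusted p of 0.844 and 0.960. Of 22 interferon response genes and 19 p53 targets 0 were called in either list, with 1 higher and 0 lower by nominal p in each. The shares higher were 4.5% and 5.3%, near the 4.12% of all genes. The 9 subunits of the cytosolic chaperonin ring held 0 at a nominal p under 0.05.

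Markers of other cells were read for the same lines. Limma called 0 of 18 fibroblast and matrix, 13 epithelial, 10 macrophage and blood, and 13 muscle and neural markers. At a nominal p under 0.05, 1 was higher among the fibroblast markers, Col6a1, and 1 among the blood markers, Laptm5, while Syp was lower. The shares higher were 5.56% of the fibroblast, 10.0% of the blood and 0% of the other markers, against 4.12% of all genes. Laptm5 differed by 0.35, or by 0.20 without line 14. The mean over the epithelial markers of a line ran from -0.16 to 0.63 in high and from -0.27 to 0.44 in low lines, over the blood markers from -0.31 to 0.64 and from -0.55 to 0.67, and over the muscle and neural markers from -0.30 to 0.64 and from -0.33 to 0.47. Over the fibroblast markers, which A23 as a fibroblast line may itself express, it ran from -1.46 to 1.08 in high and from -1.78 to 1.10 in low lines. The part of other cells in the differences was not tested.

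The 10 genes whose values were most like those of Sod2 over the 99 lines were ranked by Pearson's r on line means. The first 4 were the called genes, from Mrpl18 at 0.853 to Fam120b at 0.550. They were followed by Tex14 at 0.475, Tagap1 of the outer stretch at 0.466, Cdca8, a subunit of the chromosomal passenger complex, at 0.460, Chst14, a sulfotransferase of dermatan sulfate, at 0.460, Arhgap11a at 0.456 and Tmem87a at 0.449. Chst14, Arhgap11a and Tmem87a were listed in the same stretch of chromosome 2, and Cdca8 in a stretch of chromosome 4. Genes of the same stretch can be kept together and are not independent of one another. For Tagap1 Pearson's r was 0.382 without line 14, and its Spearman correlation over all lines was 0.107. With Sod2 on replica 1 and the gene on replica 2, r was 0.686 for Mrpl18, 0.421 for Cdca8, 0.399 for Chst14 and 0.183 for Tex14. With Sod2 on replica 2 and the gene on replica 1, r was 0.529 for Mrpl18, 0.228 for Cdca8, 0.298 for Chst14 and 0.288 for Tex14. All share the A23 reference and the same lines.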

How the data were processed

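The authors deposited log10 ratios of Cy5 over Cy3 for 202 arrays, per the labels. For scanner software, background correction and normalization, the steps were not given in the sources used here. No value was missing (0 in the table), the lowest value of -2 acts as a floor, and in 99.3% of features the 4 tissue ratios had a linear median of 1, within 1e-06, as centring per feature would leave. Intensities were not used here, and precision is limited by how many arrays there were. Per the labels, replica 2 exchanged the dyes, which ties dye orientation to replicate number. The sign of replica 1 was turned to give hybrid over A23, and values were converted to log2. Gene symbols came from the platform's probe table: 17786 features had 1 symbol, 16 several and 3066 none. Features with 1 symbol were averaged per gene and both arrays per line. High and low lines were compared with limma 3.58.1 in R 4.3.3 (lmFit, eBayes), with Benjamini-Hochberg adjustment over 16503 genes and calls at an adjusted p under 0.05. The fit was also run on simulated normal values, independent between genes, without the zeros, floor values or linked genes of these data. Columns that could not be mapped numbered 0.

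Both arrays of a line come from the same line, so the replicate numbers pair arrays within lines, and the fit on line means already joins them. The p-values measure the spread between lines. No gene positions were used here, so chromosome 17 genes came from a list written by hand in place of windows by distance. The members and lists were chosen with earlier results of these data known. Named were the called genes of the near stretch, the measured neighbours listed next to Sod2, the 10 genes most correlated with Sod2, and Sod1, Sod3, Cat, Gpx1 (not measured), Prdx3, Txn2, Txnrd2, Nfkbia and Tk1, while called distant genes and called genes of other chromosomes, 0 in each case, would also have been named. In each list the members of lowest unadjusted p serve as examples. Other groupings, scalings, filters, covariates and line sets were tried. Tables were made with Python 3.11.15, pandas 2.3.3, NumPy 2.4.6 and SciPy 1.17.1, and plots with matplotlib 3.10.9.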

Additional observations from a re-analysis of the deposited data

How the results depend on the processing

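No call under any alternative that was run was lower in the high lines. Mrpl18 was called in 35 of 35 alternatives (difference from 1.71 to 2.64, the slope aside), Igf2r and Afdn in 33 of 35 each, and Fam120b in 28 of 34, with 0 reversed. With groups set on 1 replica and genes compared in the other, 1 near gene, Mrpl18, was called either way. Fam120b was also lost without replicate 2 and with 5 principal components as covariates, and left out by a filter on genes with over 20% zeros. Genes called beyond the chromosome 17 lists, 0 on line means, numbered 2 without replicate 2 (H2-M3, Oxsm), 7 with the replicate block, 1 with arrays scaled to a common spread (Gatm), 12 with lines above 1.5 against below 0.25, 2 with both arrays required (Gatm, Tex14), 28 with a slope on Sod2 over all lines, 1 without line 42 (H2-M3) and 2 without lines 34 and 65. Of the outer and distant genes, 0 on line means, 1 was called with the replicate block (Tmem242), 1 with the stricter thresholds and 1 with the slope (Tagap1 in both). The stricter thresholds also added a near gene, Dll1, which made 5 there. In all, calls rose from 4 to 12 with the block, 18 with the stricter thresholds and 33 with the slope. The cause was not tested in any of these. Leaving out each high line in turn gave from 0 to 1 called gene outside the lists (H2-M3 without line 18, 33, 42, 65, 83 or 84, Tex14 without line 19, 21 or 47), 0 distant ones, 3 to 4 near ones and 3 to 5 calls in all, with Fam120b lost without line 14 or 28. A narrower stretch (Agpat4 to Thbs2) held 3 of the 4 calls and the wider one (Tiam2 to Prdm9) all 4. Windows of 2 and 10 megabases were not run, since no positions were used here. These alternatives of single lines, split lines and stretches were chosen after seeing the data. Intensities were not analysed here, so signal over background is unknown.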

Other observations

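Genes outside the chromosome 17 lists that limma called with the replicate block, but not on line means, were spread widely within both groups. Their limma adjusted p on line means was 0.0825 or above, and they were named after their values were seen.

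Chst14 averaged 1.51 ± 1.56 (SD, n = 20) in high and 0.35 ± 1.03 (SD, n = 72) in low lines, with 11 and 13 lines above 1. Gatm, a creatine synthesis enzyme, averaged 1.45 ± 1.99 and 0.19 ± 1.08, with 8 and 12 lines above 1, and 72.7% of its values were exact zeros. Gatm and Chst14 were listed in the same stretch of chromosome 2, so they are not independent of each other. Ipo5, a nuclear import receptor, averaged 1.80 ± 1.93 and 0.47 ± 1.36, with 10 and 13 lines above 1. Tmed5, a protein of transport between the endoplasmic reticulum and the Golgi, averaged 1.33 ± 1.67 and 0.28 ± 0.99, with 9 and 10 lines above 1. Rab2b, a GTPase of the Golgi, averaged 1.06 ± 1.37 and 0.18 ± 0.84, with 9 and 10 lines above 1.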
